A study of Arabidopsis thaliana with 8 samples.

Results

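Pectin methylesterases (PMEs) are cell wall enzymes encoded by a large gene family in Arabidopsis thaliana, and the values of 58 family genes, taken by their AGI locus codes, were followed here among the 38209 genes of each deposited table. Sums and shares given below for the family refer to these 58 members, and other genes annotated with pectinesterase activity were not included. The mRNA of seeds was sequenced in 4 genotypes that share the Col-0 background. The pkr2-2 mutant carries a T-DNA insertion (SALK_115303) in PKR2, and pkl-1 is a mutant of PKL; both genes encode CHD3 chromatin remodelers. The double mutant pkr2-2;pkl-10 carries the same pkr2 allele and another T-DNA allele of PKL (GABI_273E06), so a pkl-1 plant and the double mutant differ in their pkl allele as well as at PKR2. Col-0 was the wild type. Each genotype had 2 biological replicates of seeds pooled from at least 30 siliques, labelled as 4 days after pollination (DAP) although the extraction protocol states 3 DAP.

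The substrate of PMEs is homogalacturonan, the main pectin, which is delivered to the wall in a methyl-esterified form. PMEs remove the methyl groups, after which the chains can be cross-linked by calcium or cut by pectin-degrading enzymes, and PME inhibitor proteins (PMEIs) block the reaction. In Arabidopsis the family is known for its part in the mucilage of the seed coat, in pollen tube growth and in wall loosening of growing organs. By the notes of the RefSeq annotation (TAIR10.1), 42 members encode an inhibitor-like domain in front of the esterase domain, with a median of 572 residues, and 16 encode the esterase domain alone, with a median of 361.

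The authors deposited 1 pooled value per genotype and table, in FPKM, the fragments counted per kilobase of transcript, scaled for the depth of the libraries. The paper names a geometric method for its differential analysis, so the values are not simply scaled to the number of mapped fragments. The spread between replicates is therefore unknown, and the values are described without a test. Each table was scaled on its own, so that Col-0 stood 1.17 times higher in the table with the double mutant than in the table with pkr2-2, and genotypes were compared only within a table. Differences are given as log2(FPKM + 1) of the first-named minus the second-named genotype, a scale that understates the change of low genes. A gene was counted when its mean over both genotypes was at least 1 FPKM, and was said to rise or fall when the difference was at least 1. PKR2 stood at 0.168 FPKM in pkr2-2 and 0.120 in double mutant seeds, against 3.06 and 3.57 in Col-0. PKL stood at 2.44 FPKM in double mutant seeds against 13.6 in Col-0, whereas pkl-1 had 15.2 FPKM against 12.8 in Col-0, so the transcript level does not check the label of pkl-1. All 9 seed coat markers were at 1 FPKM or more in each genotype, among them BAN, an enzyme of proanthocyanidin synthesis. The seeds are a mixture of seed coat, endosperm and embryo, and in such bulk samples fewer cells of a type and less RNA per cell cannot be told apart.

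In Col-0, 22 of the 58 members were at 1 FPKM or more and 36 were below it, of which 13 were listed at 0. No member stood on different sides of 1 FPKM in the 3 tables that hold Col-0. AT5G49180 was far above the rest, at 3051 to 3555 FPKM in the 3 tables, and ranked 17 among all genes in Col-0. It made up 63.2% of the summed FPKM of the family, and PME44 (AT4G33220), AT1G11590, PME17 (AT2G45220) and PMEPCRA (AT1G11580) came next, with 684, 561, 151 and 121 FPKM as the mean of the 3 tables. The members just inside the limit were AT3G05620 at 1.12 FPKM and AT1G05310 at 1.25 FPKM, and those just outside it were AT2G47280 at 0.837 FPKM and AT2G36710 at 0.806 FPKM. Of the 16 members with the esterase domain alone 3 reached 1 FPKM, the highest being PME31 (AT3G29090) at 26.0 FPKM, against 19 of the 42 members with both domains. AT1G44980, AT2G21610, RHS12 (AT3G10710), AT4G00190 and AT5G04960 were listed at 0 in all 4 genotypes. A total of 27 members stayed under 1 FPKM in every genotype and table, and RHS12 is known from root hairs.

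**Figure D1:**
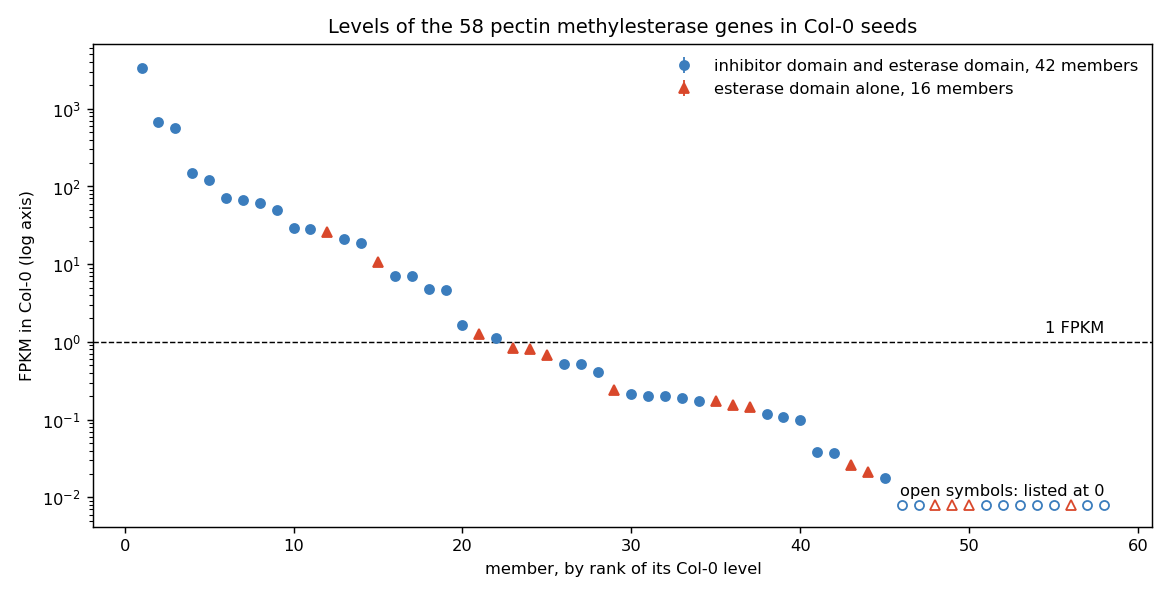
FPKM in Col-0 (log axis) of the 58 members by rank, as the mean of the 3 tables with Col-0, with bars for the lowest and highest table that are mostly hidden by the symbols; circles have both domains, triangles the esterase domain alone, and open symbols are listed at 0. The dashed line marks 1 FPKM, with 22 members above it, and AT5G49180 stands highest at 3317 FPKM.

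The summed transcript level of the family was lower in both pkl mutants. Its summed level was 2555 FPKM in pkl-1 against 5294 FPKM in Col-0, a fold of 0.483, and 2337 FPKM in double mutant seeds against 5627 FPKM in Col-0, a fold of 0.415. In pkr2-2 the sum was 4578 FPKM against 4829 FPKM in Col-0, a fold of 0.948. The most abundant member carried much of this difference, and without AT5G49180 the folds were 0.649 in pkl-1, 0.570 in double mutant seeds and 1.05 in pkr2-2. The next most abundant, PME44, AT1G11590 and PME17, were also lower than Col-0 in both pkl mutants, so the sum mainly follows these few genes. Of the 22 members at 1 FPKM or more in Col-0, 11 were above and 11 below Col-0 in pkl-1. In double mutant seeds 10 were above and 12 below. In the table of the double mutant and pkr2-2 the sums were 2375 and 5400.5 FPKM, a fold of 0.440, and against pkl-1 the double mutant had 2659 FPKM and pkl-1 3059 FPKM, a fold of 0.869. The family took 0.321% of all FPKM in double mutant seeds and 0.564% in Col-0.

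**Figure D2:**
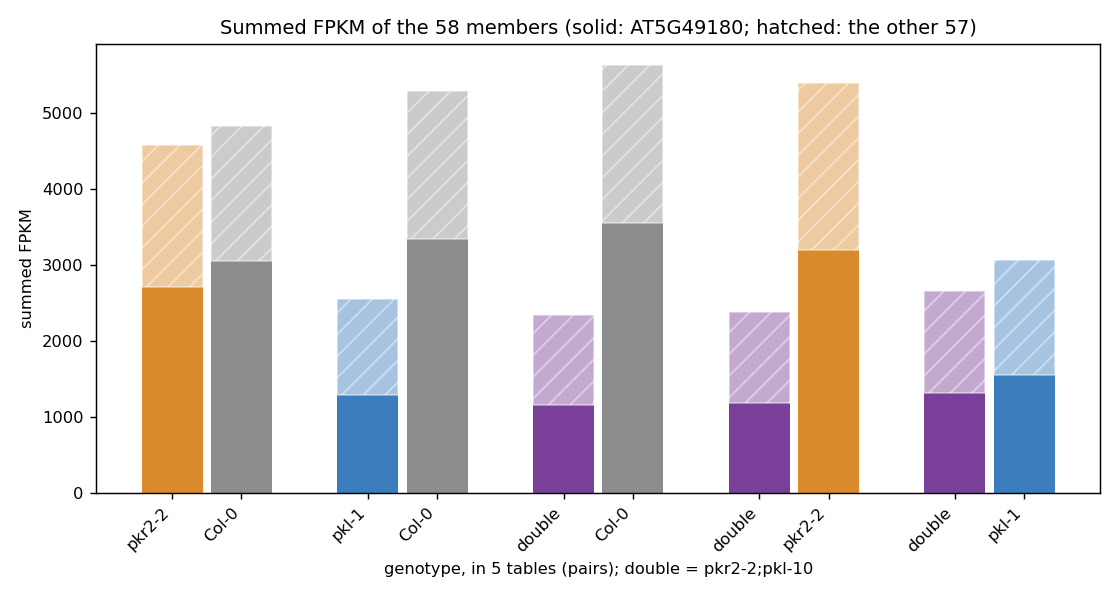
Summed FPKM of the 58 members in each genotype, as 1 pair of bars per table, with AT5G49180 in solid colour and the other members hatched on top. The bars of pkl-1 (2555 FPKM) and of the double mutant (2337 FPKM) are less than their Col-0 counterparts (5294 and 5627 FPKM), while pkr2-2 (4578 FPKM) is near its own (4829 FPKM).

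More members passed the fold in the comparisons of a pkl mutant with a genotype with intact PKL than in the others, and so did more of all genes. Between pkr2-2 and Col-0, 1 of 21 counted members rose and 2 fell, 14.3% of the members. Over all genes counted 2.90% rose and 1.88% fell, 4.78% in either direction. Between pkl-1 and Col-0, 5 of 25 rose and 5 fell, 40% of the members, against a background of 6.00% rising, 5.94% falling and 11.9% in either direction. Between the double mutant and Col-0, 8 of 27 rose and 6 fell, 51.9% of the members, against 10.3%, 8.89% and 19.2% of all genes. Between the double mutant and pkr2-2, 5 of 28 rose and 5 fell, 35.7% of the members, against 6.66%, 7.31% and 14.0% of all genes. Between the double mutant and pkl-1, 1 of 27 rose and 1 fell, 7.41% of the members, against 2.01%, 1.94% and 3.96% of all genes. In total 15 members passed the fold in at least 1 comparison, and 10 of these were at 1 FPKM or more in Col-0.

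Those under 1 FPKM in Col-0 could only be counted when the other genotype was high. Their rises are no support for a direction of the family or for its share past the fold. Among the 22 members at 1 FPKM or more in Col-0, 3 rose and 5 fell in pkl-1, and 3 rose and 6 fell in double mutant seeds. That is 36.4% and 40.9% of the 22, beside 11.9% and 19.2% of all genes counted. The median of these 22 was -0.08 in pkl-1 and -0.25 in double mutant seeds, beside medians over all genes counted of -0.02 and 0.02. The sets are unlike, since all genes counted include those under 1 FPKM in Col-0 that a high mutant value brought in. The balance of rises and falls depends on the scaling, and the alternative given next replaces the scaling of the authors. When both genotypes were scaled to the same sum of FPKM, the median of all genes moved to 0.27 in pkl-1 and 0.43 in double mutant seeds, and the members then split into 6 rises and 3 falls in pkl-1, 10 and 5 in double mutant seeds against Col-0, and 7 and 2 in double mutant seeds against pkr2-2.

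**Figure D3:**
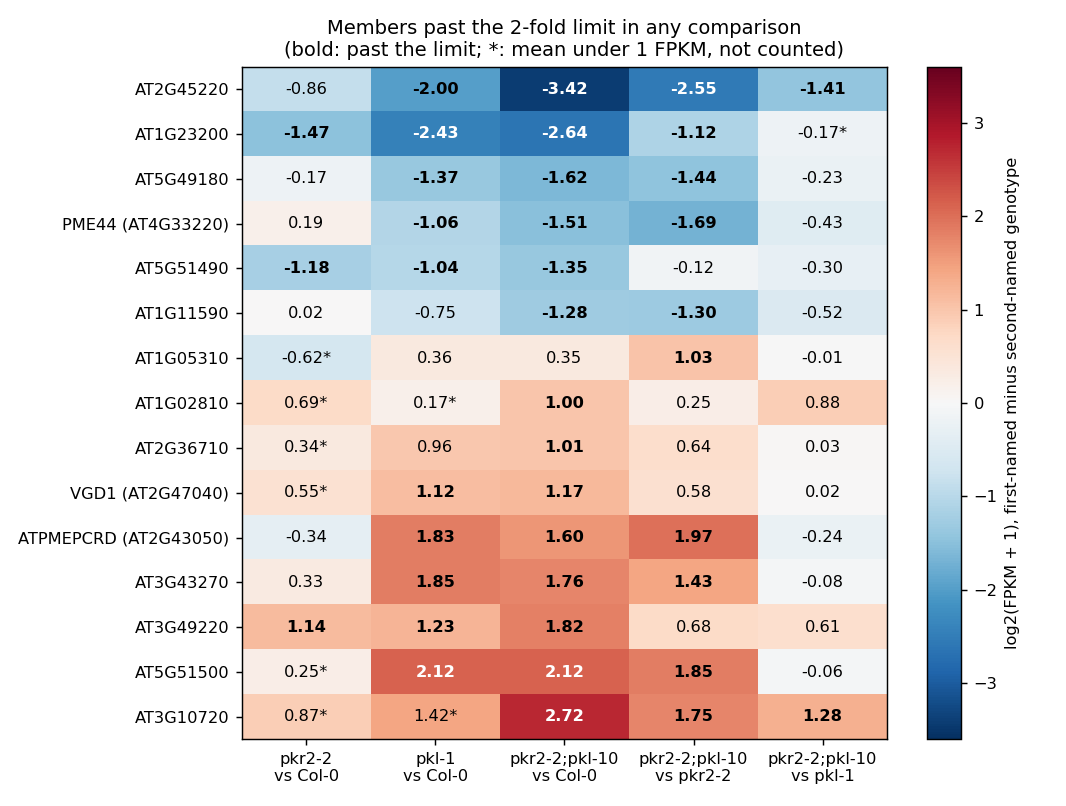
Differences in log2(FPKM + 1), first-named minus second-named genotype, of the 15 members past the fold in at least 1 of the 5 comparisons (columns); bold values are past the fold and an asterisk marks a mean under 1 FPKM. The lowest value is -3.42 for AT2G45220 and the highest 2.72 for AT3G10720, both in double mutant seeds against Col-0.

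The 6 members that fell in double mutant seeds include the 4 most abundant ones. AT5G49180, an enzyme with both domains that has no symbol in the RefSeq annotation used here (chromosome 5, 19940462 to 19943015, minus strand of TAIR10.1), was at 1155 FPKM in double mutant seeds, 1290.0 FPKM in pkl-1 and 2710.2 FPKM in pkr2-2, against 3555, 3345 and 3051 FPKM in Col-0 of the same tables. It was 3.08-fold lower in double mutant seeds (difference -1.62) and 2.59-fold lower in pkl-1 (-1.37), and differed by -0.17 in pkr2-2. In the remaining tables it stood at 1174 FPKM in double mutant seeds against 3197 FPKM in pkr2-2, and at 1314 FPKM in double mutant seeds against 1544 FPKM in pkl-1. Both genotypes with a pkl allele were thus low and both with an intact PKL high. Its fall against pkr2-2, a difference of -1.44, became -0.97 under the scaling to the same sum.

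PME44 (chromosome 4, 16022269 to 16026428, plus strand) was at 257 FPKM in double mutant seeds, 331 FPKM in pkl-1 and 716 FPKM in pkr2-2, against 733, 689.7 and 629 FPKM in Col-0. It was 2.85-fold lower in double mutant seeds and 2.09-fold lower in pkl-1 (differences -1.51 and -1.06), and the difference in pkl-1 became -0.73 under the scaling to the same sum. In pkr2-2 the difference was 0.19. AT1G11590, the tandem neighbour of PMEPCRA, was at 246 FPKM in double mutant seeds, 336 FPKM in pkl-1 and 524 FPKM in pkr2-2, against 601, 565 and 516 FPKM in Col-0. It fell in double mutant seeds alone (-1.28, or -0.83 under the scaling to the same sum), with -0.75 in pkl-1 and 0.02 in pkr2-2. PMEPCRA, which lies 1755 bases before it, differed by -0.47 in double mutant seeds, at 93.6 FPKM against 129.9 FPKM in Col-0.

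PME17 (AT2G45220, chromosome 2, 18644061 to 18646606, minus strand), an enzyme known from roots and from defence against a fungal pathogen, had the largest fall of the members counted on the log2(FPKM + 1) scale, whereas by fold AT1G23200 fell more. It stood at 14.2 FPKM in double mutant seeds, 37.3 FPKM in pkl-1 and 75.6 FPKM in pkr2-2, against 161, 152 and 138 FPKM in Col-0. The double mutant was 11.4-fold lower than Col-0 (-3.42), pkl-1 4.07-fold lower (it fell by 2.00 on the log2 scale), and pkr2-2 differed by -0.86, short of the limit. It was also the single member that fell in double mutant seeds against pkl-1, at 16.2 FPKM against 44.6 FPKM (-1.41). Against pkr2-2 the double mutant had 14.4 FPKM and pkr2-2 89.2 FPKM (-2.55). Each step from Col-0 to a single mutant and on to the double mutant was thus toward a lower level.

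AT1G23200, likewise an enzyme with both domains and without a symbol there (chromosome 1, 8227133 to 8229661, plus strand), fell in all 3 mutants. It was at 1.66 FPKM in pkr2-2, 0.486 FPKM in pkl-1 and 0.356 FPKM in double mutant seeds, against 6.39, 7.01 and 7.46 FPKM in Col-0. Col-0 was 3.84-fold above pkr2-2 (-1.47), 14.4-fold above pkl-1 (-2.43) and 21.0-fold above the double mutant (-2.64). The estimated fragments numbered 114 for pkr2-2, 38 for pkl-1 and 35 in double mutant seeds, against 459, 459 and 458 in Col-0, and the counting interval of the ratio between the double mutant and Col-0 was 0.0321 to 0.0658. Between the double mutant and pkl-1 it differed by -0.17, at 0.405 and 0.582 FPKM, with a mean too low to be counted. Against pkr2-2, the double mutant fell by 1.12 on the log2 scale, or 0.98 under the scaling to the same sum. AT5G51490 likewise was lower in each mutant, at 1.37 FPKM in pkr2-2, 1.83 FPKM in pkl-1 and 1.39 FPKM in double mutant seeds, against 4.37, 4.79 and 5.10 FPKM in Col-0 (-1.18, -1.04 and -1.35), and the value in pkl-1 became -0.82 under the scaling to the same sum.

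**Figure D4:**
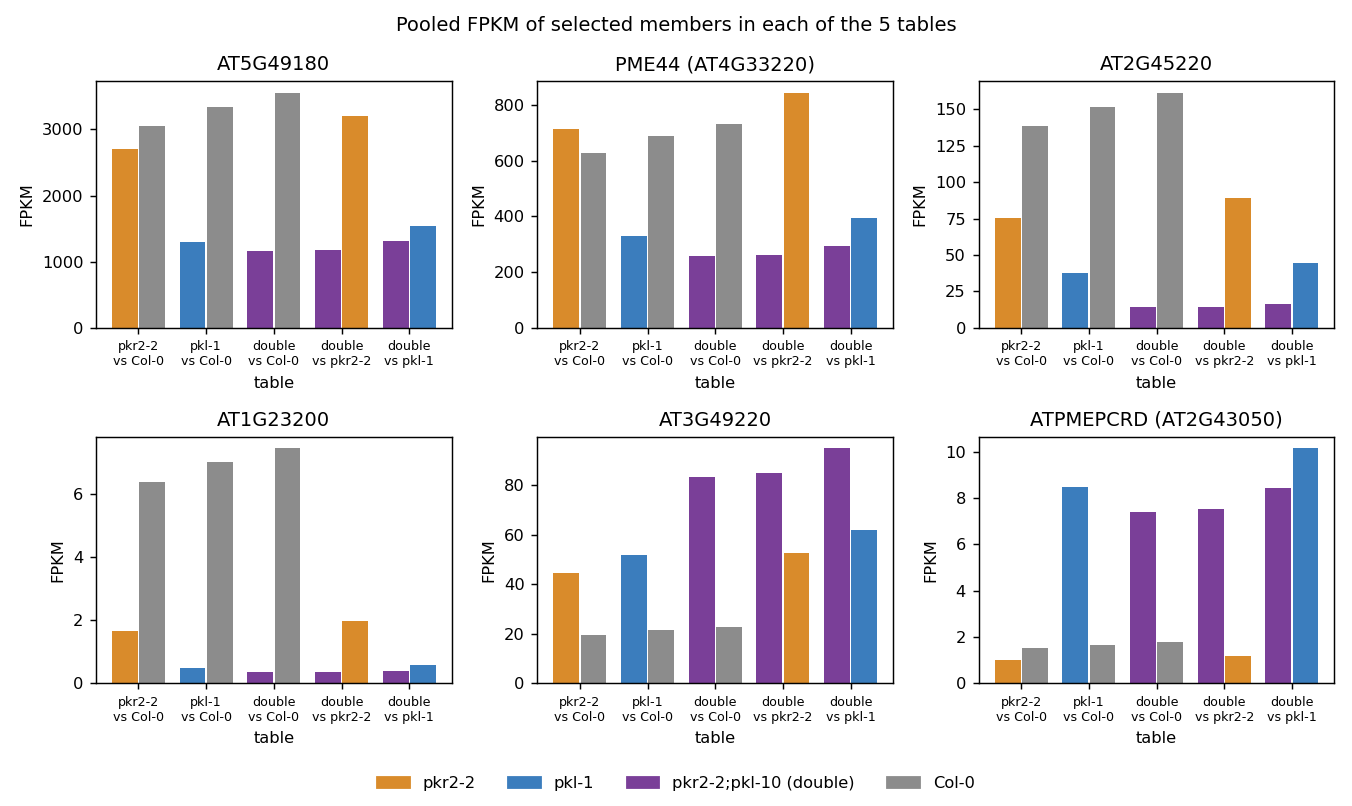
Pooled FPKM of 6 members in each of the 5 tables, with the first-named genotype of a table on the left of its pair, the axes differing between panels. AT5G49180, PME44, AT2G45220 and AT1G23200 are lowest in double mutant seeds (1155, 257, 14.2 and 0.356 FPKM), whereas AT3G49220 and AT2G43050 are higher there (83.5 and 7.42 FPKM) than in Col-0 (22.9 and 1.78 FPKM).

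The 300 bases upstream of the annotated start of the 4 members that fell in both pkl-1 against Col-0 and the double mutant against pkr2-2, and of AT3G10720, the member that rose against both single mutants, are shown as the genes the text returns to; the positions are those of TAIR10.1 and the sequences are read from RefSeq in the direction of the gene. Capitals mark matches to any of 5 motifs searched on both strands: the telobox AAACCCTA, the GAGA repeat GAGAGA, the L1 box TAAATGCA or TAAATGTA, the G-box CACGTG and the W-box in the form TTGACC. The W-box form TTGACT was not searched and is not marked where it occurs, as in AT5G49180 and PME44.
AT5G49180, chr5:19943016-19943315, minus strand: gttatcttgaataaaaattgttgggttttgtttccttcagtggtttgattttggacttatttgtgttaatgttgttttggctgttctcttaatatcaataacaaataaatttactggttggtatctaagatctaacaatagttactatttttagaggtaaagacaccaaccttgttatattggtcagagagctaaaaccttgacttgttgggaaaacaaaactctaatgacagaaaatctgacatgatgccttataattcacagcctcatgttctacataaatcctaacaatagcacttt
PME44 (AT4G33220), chr4:16021969-16022268, plus strand: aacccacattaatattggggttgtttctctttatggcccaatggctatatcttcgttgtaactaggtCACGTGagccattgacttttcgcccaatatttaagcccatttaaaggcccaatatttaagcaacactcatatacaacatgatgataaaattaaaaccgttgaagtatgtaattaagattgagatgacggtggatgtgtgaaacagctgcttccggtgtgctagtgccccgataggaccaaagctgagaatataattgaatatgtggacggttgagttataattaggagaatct
PME17 (AT2G45220), chr2:18646607-18646906, minus strand: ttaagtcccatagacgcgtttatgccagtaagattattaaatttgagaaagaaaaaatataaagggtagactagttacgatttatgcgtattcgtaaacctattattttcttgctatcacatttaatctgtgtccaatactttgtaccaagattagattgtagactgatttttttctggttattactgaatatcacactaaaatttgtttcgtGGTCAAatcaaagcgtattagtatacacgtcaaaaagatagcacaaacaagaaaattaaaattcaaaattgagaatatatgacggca
AT1G23200, chr1:8226833-8227132, plus strand: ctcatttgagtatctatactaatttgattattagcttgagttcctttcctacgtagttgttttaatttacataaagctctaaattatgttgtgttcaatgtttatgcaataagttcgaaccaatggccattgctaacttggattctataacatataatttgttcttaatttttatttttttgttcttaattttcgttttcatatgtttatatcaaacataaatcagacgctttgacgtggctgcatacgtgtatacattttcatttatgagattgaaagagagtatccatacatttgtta
AT3G10720, chr3:3357755-3358054, minus strand: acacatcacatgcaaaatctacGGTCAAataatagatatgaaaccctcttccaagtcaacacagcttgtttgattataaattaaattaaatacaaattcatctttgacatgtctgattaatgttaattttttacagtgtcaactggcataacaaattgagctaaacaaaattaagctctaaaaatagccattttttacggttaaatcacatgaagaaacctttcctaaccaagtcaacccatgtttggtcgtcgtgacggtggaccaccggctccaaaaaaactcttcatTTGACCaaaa

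Neither AT5G49180 nor AT1G23200 held any of the 5 motifs in this window, PME44 held a G-box 233 bases before its start, PME17 a W-box 87 bases before its start, and AT3G10720 held W-box matches 278 and 10 bases before its start. Over the family the telobox was found in 3 of 58 upstream regions (5.17%), against 5.21% of 27443 genes, and the GAGA repeat in 12 (20.7% against 23.6%). The W-box was found in 9 members (15.5% against 14.0%), the G-box in 2 (3.45% against 7.09%) and the L1 box in 2 (3.45% against 5.51%). A match is a description of the letters and does not show that a factor binds there.

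Among the members that rose, AT3G49220, with both domains (chromosome 3, 18249663 to 18253911, plus strand), did so in all 3 mutants. It was at 44.6 FPKM in pkr2-2, 51.9 FPKM in pkl-1 and 83.5 FPKM in double mutant seeds, against 19.7, 21.6 and 22.9 FPKM in Col-0, which is 2.27-fold, 2.41-fold and 3.64-fold. It was the single member to rise in pkr2-2 (1.14). The double mutant was also above each single mutant, at 84.9 FPKM against 52.6 FPKM in pkr2-2 and at 95.0 FPKM against 62.1 FPKM in pkl-1, by 0.68 and 0.61, both short of the limit.

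A second set rose with the pkl alleles, and none of its members passed the limit in pkr2-2. AT2G43050, named ATPMEPCRD, was at 8.50 FPKM in pkl-1 and 7.42 FPKM in double mutant seeds, against 1.68 and 1.78 FPKM in Col-0 (1.83 and 1.60), and at 1.00 FPKM in pkr2-2 against 1.53 FPKM in Col-0 (-0.34). AT3G43270 was at 28.5 FPKM in pkl-1 and 28.3 FPKM in double mutant seeds, against 7.17 and 7.62 FPKM in Col-0 (1.85 and 1.76), and at 8.50 FPKM in pkr2-2 against 6.54 FPKM in Col-0. For both genes the double mutant and pkl-1 lay close together, with differences of -0.24 for AT2G43050 and -0.08 for AT3G43270. AT5G51500, which was listed at 0 in Col-0, reached 3.36 FPKM in pkl-1 and 3.35 FPKM in double mutant seeds. In pkr2-2 it was at 0.191 FPKM, on an estimated 12 fragments, with a mean too low to be counted. It was the single one of the 13 members listed at 0 in Col-0 that reached 1 FPKM in a mutant, and no fold is given against a value of 0.

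AT5G51500 lies 1915 bases from AT5G51490, which moved the other way, and their coding sequences are 86.3% identical. In pkl-1 the pair was at 3.36 FPKM (AT5G51500) and 1.83 FPKM (AT5G51490), whereas in Col-0 AT5G51490 alone was seen, at 4.79 FPKM. Sequence reads from stretches shared by the copies could be assigned to either gene, so both levels are uncertain to that extent. The 90 bases that start at a codon for the conserved glycine of the first G-x-Y-x-E motif of the esterase domain are printed to show how close the copies are; capitals mark the 6 bases at which they differ, and the positions are on TAIR10.1.
AT5G51500, chr5:20918963-20919052, minus strand: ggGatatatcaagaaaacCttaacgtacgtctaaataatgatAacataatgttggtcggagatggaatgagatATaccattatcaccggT
AT5G51490, chr5:20914743-20914832, minus strand: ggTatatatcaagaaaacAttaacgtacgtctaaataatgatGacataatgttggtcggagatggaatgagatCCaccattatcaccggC

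AT3G10720 (chromosome 3, 3354406 to 3357754, minus strand), with both domains, was the member with the largest rise. It was at 0.897 FPKM in pkr2-2, 1.79 FPKM in pkl-1 and 5.83 FPKM in double mutant seeds, against 0.0344, 0.0377 and 0.0402 FPKM in Col-0. The double mutant exceeded Col-0 by a factor of 145 (2.72), with a counting interval of 42.9 to 612, since the Col-0 value rests on an estimated 3 fragments and that of the double mutant on 619. It was the single member to rise in double mutant seeds against both single mutants, at 5.93 FPKM against 1.05 FPKM in pkr2-2 (1.75) and at 6.64 FPKM against 2.14 FPKM in pkl-1 (1.28). Against Col-0 both single mutants had means too low to be counted.

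A further 3 members passed the limit narrowly. AT1G02810 was at 1.88 FPKM in double mutant seeds against 0.441 FPKM in Col-0 (1.00), and AT2G36710, an enzyme with the esterase domain alone, at 2.74 FPKM against 0.865 FPKM in Col-0 (1.01). Both fell below the limit, at 0.98, when the differences were centred on the median of all genes. AT1G05310, also with the esterase domain alone, was at 2.00 FPKM in double mutant seeds against 0.468 FPKM in pkr2-2 (1.03), while the double mutant and Col-0 had 1.97 and 1.34 FPKM (0.35).

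VGD1 (AT2G47040), an enzyme needed for the growth of pollen tubes, rose in pkl-1 and in double mutant seeds. It was at 2.30 FPKM in pkl-1 and 2.48 FPKM in double mutant seeds, against 0.516 and 0.549 FPKM in Col-0 (1.12 and 1.17), and at 1.15 FPKM in pkr2-2 against 0.471 FPKM in Col-0 (0.55). Its homolog VGDH1 (AT2G47030), whose coding sequence is 90.4% identical, VGDH2 (AT3G62170) and PPME1 (AT1G69940), a further pollen tube enzyme, stayed under 1 FPKM. The levels of VGDH1 were 0.643 FPKM in pkr2-2, 0.793 FPKM in pkl-1 and 0.419 FPKM in double mutant seeds, against 0.161, 0.176 and 0.187 FPKM in Col-0. PPME1 stood at 0.572, 0.256 and 0.436 FPKM in pkr2-2, pkl-1 and the double mutant, against 0.158, 0.174 and 0.185 FPKM in Col-0. VGDH1, VGDH2 and AT5G07410 were named after their values were seen.

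Transcripts of a list of 12 pollen genes were scarce. Their summed level was 3.31 FPKM in pkr2-2, 8.33 FPKM in pkl-1 and 6.55 FPKM in double mutant seeds, against 0.821, 0.900 and 0.957 FPKM in Col-0. Most of it was AT5G45880, at 2.32, 7.25 and 5.19 FPKM in these mutants against 0.352, 0.386 and 0.411 FPKM in Col-0. The other 11 genes of the list were under 1 FPKM in every genotype, and DUO1 and AGL104, regulators of pollen development, were listed at 0 throughout. Whether RNA from pollen had a part in the rise of VGD1 was not tested. The coding sequences of PPME1 and of AT5G07410, on another chromosome, are 96.6% identical, so their values cannot be told apart with confidence; AT5G07410 was at 1.32 FPKM in pkr2-2, 0.738 FPKM in pkl-1 and 0.698 FPKM in double mutant seeds, against 0.219, 0.240 and 0.255 FPKM in Col-0. The same window of the esterase domain shows 3 differing bases, in capitals, with positions on TAIR10.1.
AT5G07410, chr5:2346241-2346330, plus strand: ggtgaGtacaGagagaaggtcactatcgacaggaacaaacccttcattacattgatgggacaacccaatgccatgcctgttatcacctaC
PPME1 (AT1G69940), chr1:26344492-26344581, minus strand: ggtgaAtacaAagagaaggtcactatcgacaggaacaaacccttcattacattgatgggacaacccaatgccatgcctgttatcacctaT

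Several members with known roles elsewhere in the plant did not pass the limit. PME3 (AT3G14310), which acts in adventitious rooting, was at 32.7 FPKM in pkr2-2, 25.6 FPKM in pkl-1 and 24.9 FPKM in double mutant seeds, against 26.7, 29.3 and 31.1 FPKM in Col-0 (0.28, -0.19 and -0.31). PME35 (AT3G59010), known from the strength of the stem, was at 53.9, 62.6 and 74.2 FPKM in pkr2-2, pkl-1 and the double mutant, against 46.4, 50.8 and 54.0 FPKM in Col-0 (0.21, 0.30 and 0.45). QRT1 (AT5G55590), which separates pollen grains, was at 0.0669 FPKM in double mutant seeds, 0.157 FPKM in pkl-1 and 0.661 FPKM in pkr2-2, against 0.733, 0.690 and 0.629 FPKM in Col-0, with means too low to be counted. PME5 (AT5G47500), known from the shoot apex, was at 1.27 FPKM in double mutant seeds against 0.0226 FPKM in Col-0, where it rested on an estimated 1 fragment, and had a mean too low to be counted. In all, 14 members were counted somewhere and passed the limit nowhere, and 29 were counted in no comparison.

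Loss of PKL can be followed in both backgrounds without shared libraries, as pkl-1 against Col-0 and as the double mutant against pkr2-2. The pkl allele differs between these comparisons. Of the 5 members that rose in each, 3 rose in both (60% of each list), namely AT2G43050, AT3G43270 and AT5G51500. Of the 5 that fell in each, 4 fell in both (80% of each list), namely AT5G49180, PME44, PME17 and AT1G23200. AT5G51500, under 1 FPKM in Col-0 and in pkr2-2, was counted only through the pkl mutants, so its shared rise is no support. Among the members at 1 FPKM or more in Col-0, 3 rose in each comparison, with AT2G43050 and AT3G43270 in both lists. Of all genes, 583 rose in both, 54.3% of those in pkl-1 and 47.7% of those in the other comparison, and 712 fell in both, 67.0% and 53.1%. Over the 22 members at 1 FPKM or more in Col-0, the differences had a Pearson's r of 0.89 and a Spearman's rho of 0.90, and 20 had the same sign. With the 3 members that were counted through the high value of a mutant, r was 0.91 and rho 0.92 over 25; over all 17527 genes counted in both r was 0.75 and 79.2% had the same sign. The points share a table's scaling, and genes are not independent replicates. Under the scaling to the same sum, 5 members rose in both and 1 fell in both.

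**Figure D5:**
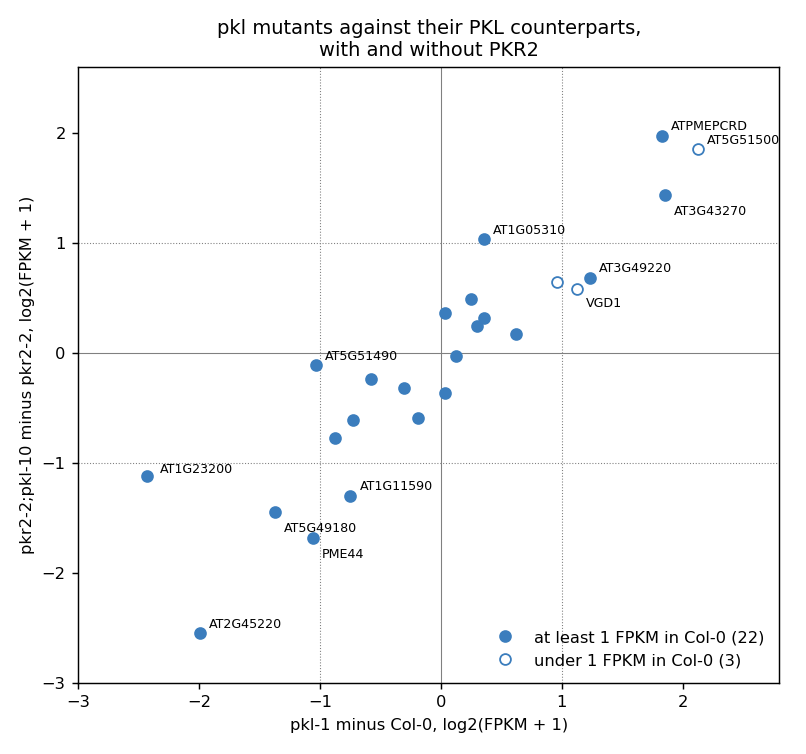
Differences in log2(FPKM + 1) of the 25 members counted in both comparisons, pkl-1 minus Col-0 on the x axis and the double mutant minus pkr2-2 on the y axis; filled points are at 1 FPKM or more in Col-0 and dotted lines mark a difference of 1 in size. The points lie along the diagonal, with AT1G23200 at -2.43 and -1.12 and ATPMEPCRD (AT2G43050) at 1.83 and 1.97.

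The loss of PKR2 can be set out as pkr2-2 against Col-0 and as the double mutant against pkl-1. The second comparison also exchanges the pkl allele, and the transcripts of both PKR2 and PKL fell in it. Its differences therefore cannot be assigned to PKR2 alone. No member passed the fold in the same direction in both, with 1 rise and 2 falls in the first and 1 of each in the second. Of all genes, 86 rose in both, 16.9% of the first list and 23.1% of the second, and 76 fell in both, 23.0% and 21.1%, so that these few calls of members say little on overlap. AT3G49220 rose and AT1G23200 and AT5G51490 fell in the first, whereas AT3G10720 rose and PME17 fell in the second. Over the 20 members counted in both, r was 0.67 and rho 0.62, and 13 had the same sign, while over all 17001 genes r was 0.34 and 61.2% had the same sign.

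In the genome, 15 pairs of neighbouring members lie within 10 kb of each other. Both members were at 1 FPKM or more in Col-0 in 1 pair, PMEPCRA and AT1G11590, 1 member in 7 pairs and neither in 7. In the pair of PME12 (AT2G26440) and AT2G26450 the Col-0 levels were 70.3 and 0.190 FPKM, and in that of PME39 (AT4G02300) and AT4G02320 18.6 and 0.0979 FPKM. PME44 overlaps the end of AT4G33230 on the opposite strand by 114 bases, and AT4G33230 was listed at 0 in Col-0; whether the counting used strand is not given in the sources used here.

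The other genes of the pathway were taken as lists by their role. None of the 8 genes for homogalacturonan synthesis and methylation, such as the galacturonosyltransferase QUA1 and the methyltransferase QUA2, passed the limit in any comparison, and their summed level was 457 FPKM in double mutant seeds against 466 FPKM in Col-0. Of 11 PME inhibitors, 5 or 6 were counted in each table. PMEI1 (AT1G48020) rose in pkl-1, at 2.37 FPKM against 0.103 FPKM in Col-0 (1.61), and in double mutant seeds, at 2.76 FPKM against 0.109 FPKM in Col-0 (1.76), and AT3G47380 rose in double mutant seeds, at 1.83 FPKM against 0.218 FPKM in Col-0 (1.22), and against pkl-1, at 2.08 FPKM against 0.500 FPKM (1.04). The most abundant one in Col-0, AT5G62360, was at 66.5 FPKM in double mutant seeds against 121 FPKM in Col-0 (-0.86), and at 75.6 FPKM in double mutant seeds against 206 FPKM in pkl-1 (-1.44), where it fell.

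Of 8 genes for PME processing and mucilage control, ARA12 (AT5G67360), the subtilisin protease SBT1.7 that is needed for the release of seed mucilage, was the single one to pass the limit. It was at 687 FPKM in double mutant seeds, 1056 FPKM in pkl-1 and 2119 FPKM in pkr2-2, against 3885, 3654 and 3333 FPKM in Col-0 (-2.50, -1.79 and -0.65). The other 7, among them the seed coat regulators GL2 and STK and the galactosidase MUM2, differed by at most 0.81 in size in the 3 comparisons with Col-0, the value of SBT3.5, whose mean was too low to be counted.

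Markers of the seed tissues differed between the genotypes as well. The summed level of 9 seed coat markers was 1271 FPKM in double mutant seeds, 1236 FPKM in pkl-1 and 891 FPKM in pkr2-2, against 1006, 947 and 864 FPKM in Col-0. Of the 9, 3 rose in double mutant seeds against Col-0, TT10, TT16 and TT8, which is 33.3% beside 10.3% of all genes counted. The summed level of 4 embryo markers was 11.8 FPKM in double mutant seeds, 17.6 FPKM in pkl-1 and 73.5 FPKM in pkr2-2, against 108, 102 and 92.8 FPKM in Col-0, with LEC1, a regulator of embryo development, at 5.45 FPKM in double mutant seeds and 13.4 FPKM in pkl-1, against 99.9 and 93.9 FPKM in Col-0. LEC1 made up most of that sum in Col-0, and WOX9 of the same list was at 4.84 FPKM in double mutant seeds against 2.75 FPKM in Col-0 (0.64). The summed level of 9 endosperm markers was 95.6, 105 and 121 FPKM in double mutant seeds, pkl-1 and pkr2-2, against 173, 163 and 149 FPKM in Col-0. Of the 7 counted in double mutant seeds against Col-0, 4 fell, FWA, PHE1, MINI3 and ZOU, which is 57.1% beside 8.89% of all genes counted. AGL62 of that list was at 2.01 FPKM in double mutant seeds against 0.531 FPKM in Col-0 (0.98). No marker of these 3 lists was listed at 0 in any genotype. The part of tissue proportions in the falls of AT5G49180, PME44, PME17 and AT1G23200 was not tested.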

How the data were processed

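The FPKM values were computed by the authors and deposited as 1 pooled value per genotype in 5 gene tables of 38209 genes, from 8 samples (4 genotypes, 2 biological replicates each). Reads were trimmed with Fastp and, per the labels, mapped to TAIR10 with TopHat2 2.1.1 and expression was computed with Cufflinks 2.2.1.3 (submitters' processing notes); the libraries were paired-end, with a stated depth of 20 M reads each. The authors' own fold changes, test statistics, p-values and q-values stand in the same tables and were not used. The number of per-sample value columns without a sample is 0. The 4 genes whose estimate had failed were left out.

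Differences were computed as log2(FPKM + 1), counted at a mean of at least 1 FPKM and called at a difference of at least 1; pooled values allow no test. Low FPKM values of transcripts of at least 2000 bases lay on steps worth 1 fragment of either library for at least 96.5% of values within 0.05 fragments, which gave the estimated fragments; 1 FPKM of a 2000-base transcript corresponded to 57.2 to 97.4 fragments. Ratio intervals (95%, Clopper-Pearson) cover counting error only and depend on this estimate. Upstream regions of 300 bases, neighbours within 10 kb, coding identities and positions came from RefSeq TAIR10.1, where 50 of the 58 members had the interval of the tables; symbols are those of that annotation or its synonyms. Members named are those past the fold in any comparison, the 5 highest in Col-0, 9 with roles in seeds, pollen or pectin, and PKL and PKR2. Members named beyond this rule (those nearest the 1 FPKM limit, those listed at 0 in all genotypes, neighbours, near-identical copies, PME31 and the VGDH genes) were chosen after their values were seen. The members, lists and this rule were chosen with earlier results of these data known. Alternatives were a pseudocount of 0.1, a log2 threshold of 2, no filter, a mean of at least 5 FPKM, centring on the median, Col-0 limits of 0.5 and 2 FPKM and, added after the data were seen, scaling to the same sum of FPKM. On simulated data for pkl-1 against Col-0 (17882 genes counted), 199 of 200 changed genes were recovered and 10 unchanged genes passed the limit. How often the unknown spread between replicates takes a gene past the limit was not tested. The recovery of differences close to the limit was not tested either. The software was Biopython 1.88, matplotlib 3.10.9, pandas 2.3.3, numpy 2.4.6, scipy 1.17.1 and Python 3.11.15.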

Additional observations from a re-analysis of the deposited data

How the results depend on the processing

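No result turned its direction past the limit under any alternative. The median of the members did change sign at a mean of at least 5 FPKM, however, and the balance of rises and falls moved with the scaling. With a log2 threshold of 2, the members past the fold numbered 0 (pkr2-2 against Col-0), 2 (pkl-1 against Col-0), 4 (double mutant against Col-0), 1 (double mutant against pkr2-2) and 0 (double mutant against pkl-1), and 0 were past it in both comparisons of PKL loss; of all genes, 1.06%, 2.25%, 4.5%, 3.00% and 0.929% were past it in these 5 comparisons. At a mean of at least 5 FPKM, with fewer members counted, these numbers were 1, 6, 6, 5, 1 and 4, beside 3.58%, 10.5%, 16.7%, 12.1% and 2.70% of all genes in the 5 comparisons. The median of the members counted was then -0.19 in pkl-1, -0.39 in double mutant seeds against Col-0 and -0.34 in double mutant seeds against pkr2-2; with all members counted it was 0.16 in double mutant seeds against Col-0, and with a pseudocount of 0.1 FPKM 0.46, beside 0.35 as first computed. Scaling to the same sum of FPKM, an alternative chosen after seeing the data, gave medians of 0.36, 0.66 and 0.47 for pkl-1 against Col-0, the double mutant against Col-0 and the double mutant against pkr2-2; the median of all genes then stood at 0.27, 0.43 and 0.43. As first computed, it was -0.02, 0.02 and 0.01. The 22 members at 1 FPKM or more in Col-0 were 27 at a limit of 0.5 FPKM and 19 at 2 FPKM. A pseudocount of 0.1 FPKM took 4 values past the limit: AT2G36710 in pkl-1 (1.53), AT3G05620 in double mutant seeds against Col-0 (1.01), AT1G02810 in double mutant seeds against pkl-1 (1.46) and AT5G07410 in double mutant seeds against pkr2-2 (-1.03). It also made AT1G23200 the member with the largest fall in double mutant seeds against Col-0, at -4.05 beside -3.50 for AT2G45220. No paired analysis was possible because the tables hold 1 pooled value per genotype and no replicate numbers, and for the same reason no replicate could be left out. Depth limits the lowest members, where a few fragments set a value.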
